A study of Bombyx mori with 12 samples.

Results

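The prothoracic gland of Bombyx mori larvae was compared with 6 other tissues of the same stage on custom oligonucleotide arrays that measured total RNA in 1 colour. The gland is represented by 1 of the 12 arrays of the series, and it was set against the brain, fat body, salivary gland, midgut, Malpighian tubule and epidermis, which had 1 array each. All 7 samples were taken on day 2 of the 4th instar from larvae of the commercial strain Kinsyu x Showa reared on mulberry leaves, with no treatment named, and the labels give neither the sex nor the number of larvae dissected. The other 5 arrays held the complex of corpora cardiaca and corpora allata (CC-CA; 2 of the 4th instar, 1 of day 4 of the 5th instar) and, from day 10 of the 5th instar, testis and ovary. They entered no count against the 6 tissues and are used below only where named. With 1 array per tissue the differences have no replicate check, so sizes and counts are given without p-values.

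The prothoracic gland is the endocrine gland that makes ecdysone from dietary sterols, and its release of the hormone sets the time of each moult. The brain stimulates it through prothoracicotropic hormone, and several other neuropeptides, among them myosuppressin and prothoracicostatic peptide, hold its output down in the silkworm. Juvenile hormone, made in the corpora allata, decides whether a moult leads to another larval stage, and it is broken down by an esterase and by epoxide hydrolases.

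A level is the log2 of the background-subtracted signal relative to the 75th percentile of the array, so that 0 is the level of a fairly bright spot, and levels of different probes are not compared. A probe was tested where it was well above background, as marked by the scanner software, on at least 1 of the 7 arrays (34765 of 42564 probes). Of those, 77.6% were well above background in the prothoracic gland. Where the brighter tissue stands against a dim signal, the fold is written "at least N-fold" against the lowest signal well above background on the dim array or the dim probe's own signal, whichever was higher. As a yardstick of error from another tissue, the pair of 4th instar CC-CA arrays had a replicate SD of 0.43 on the log2 scale, and 4.93% of 28843 probes differed by 2-fold or more between them. Spots of 1 probe repeated on the prothoracic gland array had a median SD of 0.04 over 956 probes. The prothoracic gland shared its slide with brain, fat body and replicate 1 of the 4th instar CC-CA. The other 4 tissues lay on other slides, so for them tissue and slide cannot be told apart.

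None of the gene names on the array belonged to the enzymes of ecdysteroid synthesis (0 members of that list were found), so the tissue label was not checked here against its own defining genes. Of 12 marker genes of the 6 other tissues, 10 were not well above background in the prothoracic gland, and each marker was between 5.19 and 12.6 higher, on the log2 scale, in the tissue it marks. These markers were chosen with earlier results known, and other genes bright in those tissues were measured in the gland, such as BmorCPG16, at 8.50 in fat body and -1.59 in the gland. The 2 markers that were measured in the gland were DHR, a diuretic hormone receptor, at -4.42 against 4.66 in Malpighian tubule, and jhbp-brp1649, a juvenile hormone binding protein sequence, at -3.30 against 3.94 in salivary gland. The 4 CC-CA markers Jhamt, AKH-1, AKH-2 and pburs were not well above background, but other CC-CA sequences were. In both 4th instar CC-CA arrays, 105 probes were at least 32-fold above the 6 tissues. Of these, 33 were well above background in the gland, against 35 in brain, 39 in epidermis and 12 to 24 in the other tissues. The highest in the gland, fcaL-P47_pT_N17_RevCom, was -1.19 there and 4.87 and 4.51 in CC-CA. In dissected tissue, fewer cells of a type and less RNA per cell cannot be told apart.

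A small set of sequences without gene names was far brighter in the prothoracic gland than in any of the other 6 tissues. The sequence BGIBMGA001753, a gene model, stood at 4.33 in the gland. It was -6.11 in brain, -7.25 in fat body, -8.31 in midgut, -8.37 in epidermis, -5.19 in Malpighian tubule and -8.72 in salivary gland. Only Malpighian tubule was well above background among these 6, and the gland was at least 653-fold higher than each of them. The clone fprWP23_F_P22 came next with 3.097 in the gland, -5.10 in midgut, where it was well above background, and between -8.67 and -5.33 in the 5 other tissues, where it was not. It was at least 278-fold higher in the gland, and all 5 of its probes passed the 2-fold rule.

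The other 10 of the 12 sequences with the largest margins stood between 1.78 and 2.89 in the gland. The clone fprw06H04 had 2.89 in the gland, and its highest other level was -4.85 in Malpighian tubule, a 215-fold difference. The clone fprw07E03 had 2.69, with -4.91 in epidermis as the highest other level, a 194-fold difference. Both were seen, far more weakly, in at least 4 other tissues. The clone fprw15M10 and the gene model BGIBMGA007047 had 2.55 and 2.52 in the gland and were not well above background in any of the 6 tissues, which gave at least 190-fold and at least 187-fold. Their levels over the 12 arrays correlated at r = 1.00, a description over arrays of different tissues. Both were chosen for a high gland level on these arrays, which by itself raises such a correlation.

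Another 5 of the 12 had similar profiles, with correlations between 0.95 and 1.00 over the 12 arrays, and brain as their highest other tissue. All 12 were chosen for a high gland level on these arrays, and correlations among them ran from 0.71 to 1.00. Pairs outside the 5 also reached that range, such as fprw06H04 with BGIBMGA001753 at 0.96, so correlation alone does not set the 5 apart. They were fprw07G14 (158-fold over brain), BGIBMGA000368 (146-fold), fprw26N04 (138-fold), fprw02E14 (129-fold) and fprw19N13 (at least 112-fold). For fprw26N04, all 5 probes passed. The levels of fprw26N04 were 2.34 in the gland, -4.77 in brain, -4.85 in fat body, -5.07 in midgut, -6.73 in epidermis, -5.19 in Malpighian tubule and -6.09 in salivary gland. Whether sequences with similar profiles come from 1 transcript was not tested. The last of the 12, BGIBMGA002244, had 2.70 in the gland and between -4.80 and -3.25 elsewhere, 61.8-fold above epidermis.

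Of the 12 sequences, 8 were clones whose names begin with fprw and 4 were gene models named BGIBMGA, 10 rested on 1 probe each, and 0 had a saturated spot in the gland. Against brain and fat body alone, on the same slide, the 12 margins lay between 6.80 and 9.35 on the log2 scale, bounds included. Margins over these tissues cannot be smaller than those over all 6. All 12 were also higher in both 4th instar CC-CA arrays than in any of the 6 tissues, as the plot of their levels shows. BGIBMGA001753, for one, stood at -0.95 and -1.97 there, and at -4.86 in the 5th instar CC-CA. All 12 were higher, by 0.63 to 1.56, in CC-CA replicate 1, on the gland's slide, than in replicate 2, on another slide, where the median difference between these arrays over probes measured on both was 0.08. The gland exceeded the mean of the 4th instar pair by 4.77 to 5.79 for the 12 sequences, and what part that signal has in the margins was not tested.

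**Figure D1:**
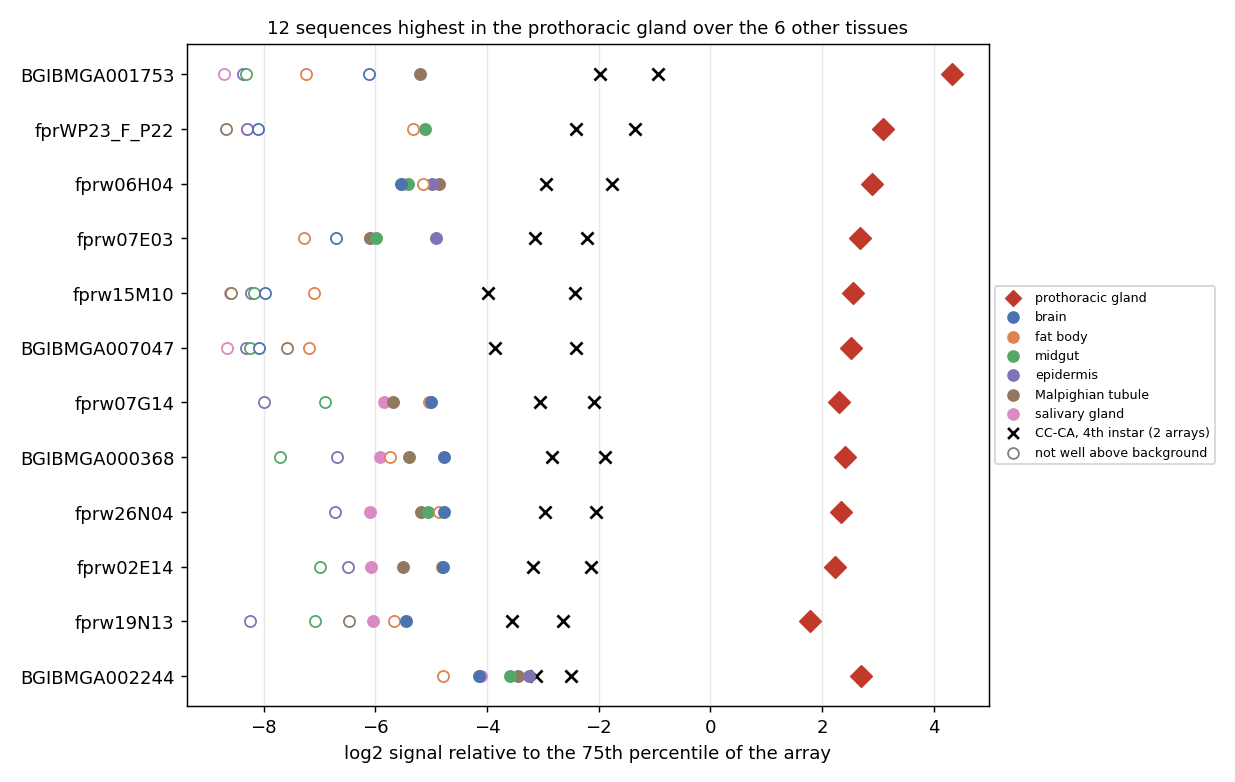
Levels (log2 signal relative to the 75th percentile of the array, x axis) of the 12 sequences with the largest margin of the prothoracic gland over the 6 other tissues. Red diamonds are the prothoracic gland, circles the 6 tissues, open where not well above background, and crosses the pair of 4th instar CC-CA arrays, which lie between the gland and the 6 tissues for all 12 sequences.

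Beyond these 12, single sequences showed other patterns, and the ones named here were chosen after their values were seen. The clone fprW12B11, of which 5 probes were measured, was 4.90 in the gland and between -0.67 and 0.17 in the 6 tissues, 26.6-fold above Malpighian tubule, so it was bright everywhere and brightest in the gland. Its levels in the 4th instar CC-CA were -0.10 and -0.13. In contrast, fprw06O19 was 4.64 in the gland, 27.8-fold above brain, but 4.50 and 3.82 in the 4th instar CC-CA and 2.90 in ovary. The clone ftes03K06 passed the 2-fold rule with -2.81 in the gland and no other of the 7 arrays well above background, yet it stood at 5.30 in testis.

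Over all tested probes, 551 were at least 2-fold above the highest of the 6 other tissues in the prothoracic gland, 1.58% of the 34765. Counted in the same way, each of the 6 other tissues had more, from 1139 in Malpighian tubule and 1444 in midgut to 2388 in brain and 2446 in fat body. The gland had the fewest under each of the 6 other treatments of the signals that were run, with 307 to 841 probes by scaling or background correction, 381 when dim signals were raised to the floor and 142 among the 22010 probes that rose well above background on every one of the 7 arrays. Of the 551, 261 were at least 4-fold above the other tissues (0.751% of those tested), 67 at least 16-fold and 23 at least 64-fold.

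The probes that led in the prothoracic gland included some seen in none of the 6 other tissues and some seen in all 6. Of the 551, 224 were not well above background in any of the 6 other tissues, and 142 were well above background in all 6. Among all tested probes measured in the gland, 81.6% were well above background in all 6 others and 1.03% in none. A probe seen only in the gland was tested through the gland's own signal, and 224 of 277 such probes passed. Their large share of the 551 thus follows mostly from the rule and is no separate result. Where a sequence was represented by 2 or more tested probes, at least 1 probe passed for 128 sequences, and every probe passed for 77 of those. In 31 of the 128, another probe of the sequence was lower in the gland than in some other tissue, so probes of 1 sequence disagreed often.

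**Figure D2:**
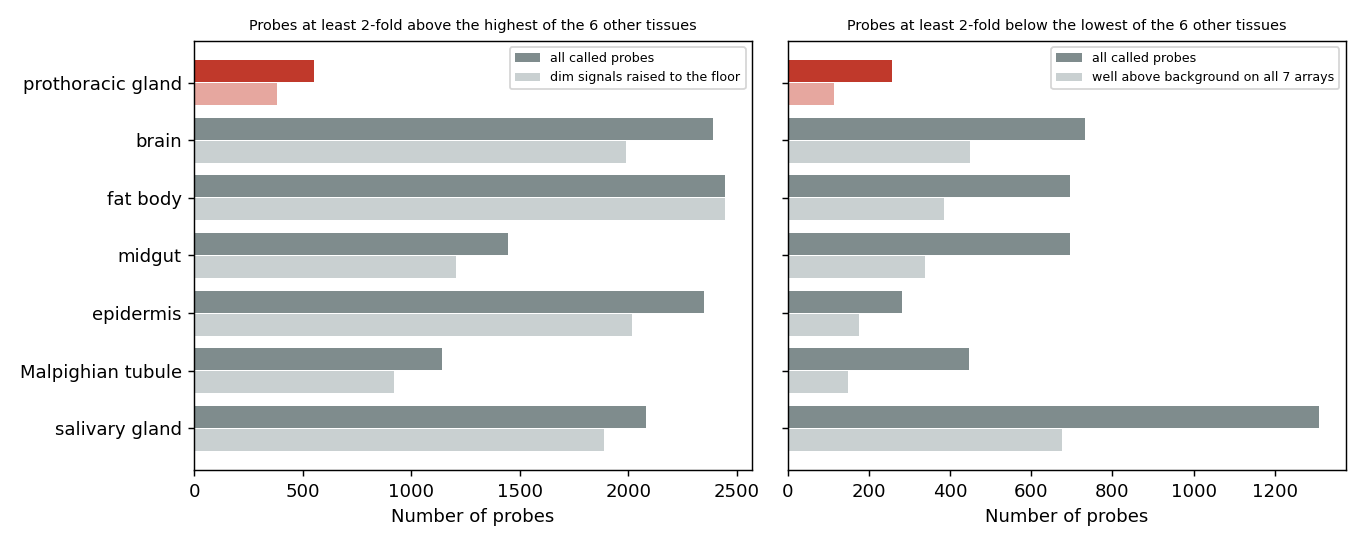
Numbers of probes (x axes) at least 2-fold above the highest (left) or at least 2-fold below the lowest (right) of the other 6 tissues, for each of 7 tissues with 1 array each. Lighter bars count probes after dim signals were raised to the floor (left) or only probes well above background on all 7 arrays (right), and the prothoracic gland, in red, has 551 and 381 on the left and 257 and 113 on the right.

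Taken pair by pair over the tested probes, levels in the prothoracic gland correlated most closely with salivary gland (r = 0.886), then with Malpighian tubule (0.857), brain (0.850), epidermis (0.833), fat body (0.828) and midgut (0.825). They were taken over the probes of 1 array per tissue, which are no replicates of each other. Between 36.7% (brain) and 46.1% (midgut) of the probes measured in either tissue differed by 2-fold or more. The gland was at least 2-fold higher at 17% of these probes against brain, 17.6% against epidermis, 19.2% against Malpighian tubule, 22.7% against salivary gland, 22.8% against midgut and 22.9% against fat body. It was at least 2-fold lower at 19.8% against brain, 20.8% against fat body, 20.9% against salivary gland, 21.8% against Malpighian tubule, 23.3% against midgut and 23.5% against epidermis. How these split into higher and lower depended on the scaling. Against brain, for example, 46.2% of the probes past 2-fold were higher in the gland, and 73.6% were so on the scale of the authors' deposited values.

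The part of a sequence name that stands before its number was used to group the array's sequences, of which 25841 were tested. The sources used here do not state what the prefixes stand for. Of all sequences, 429 passed the 2-fold rule in the gland on their representative probe, 1.66%. Of 533 sequences beginning with fprw, 18 passed (3.38%), and 8 of these 18 were among the 12 with the largest margins. Sequences beginning with BGIBMGA passed in 208 of 10200 cases (2.04%), those beginning with ftes in 30 of 792 (3.79%) and those beginning with fcaL in 94 of 7759 (1.21%). By the same rule, more of the fprw sequences led in salivary gland (34, or 6.38%, against 5.79% of all sequences) than in the prothoracic gland, and 116 of the ftes sequences led in brain (14.6%, against 7.27%). For other prefixes, 37.1% of the fmgv sequences led in midgut (4.69% of all sequences did), 30.6% of the MFB sequences in fat body (7.38%) and 30.1% of the fepM sequences in epidermis (6.78%).

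Only 345 genes on the array carried a gene name, and 250 of them were tested. Of these 250, 9 were at least 2-fold above all 6 tissues in the prothoracic gland (3.6%), against 1.66% of all sequences, and 5 of the 9 remained 2-fold above when dim signals were raised to the floor. The 9 were the juvenile hormone degrading enzymes JHEH1 and JHE, 6 cuticular protein genes and the receptor BNGR-A16. Set against brain and fat body alone, with bounds, only the same 5 of the 9 were 2-fold higher. These 5 had to pass, since both tissues are among the 6.

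JHEH1, a juvenile hormone epoxide hydrolase, had the largest margin among named genes. Its level was -2.31 in the prothoracic gland, -7.96 in brain, -6.51 in fat body, -6.16 in midgut, -7.33 in epidermis, -6.79 in Malpighian tubule and -6.31 in salivary gland. It was well above background only in the gland among these 7, at least 6.55-fold higher, and both of its probes passed. With normexp background correction its margin was 1.91 on the log2 scale, below that bound. Outside these tissues it stood at -5.22 and -5.58 in the 4th instar CC-CA and at -3.31 in ovary.

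JHE, the juvenile hormone esterase, was measured on all 7 arrays. It stood at 0.21 in the gland, -4.13 in brain, -1.40 in fat body, -3.44 in midgut, -4.35 in epidermis, -3.68 in Malpighian tubule and -5.29 in salivary gland. The gland was 3.05-fold above fat body, the next tissue, and far above the other 5. Of its 3 tested probes, 2 passed, and the margins over its probes ran from 0.32 to 1.70 on the log2 scale. The esterase was lower in all 3 CC-CA arrays, at -1.65, -1.65 and -0.53.

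The list of juvenile hormone genes held 23 members, of which 21 were tested and 14 were well above background in the gland, where 77.6% of all tested probes were. Only JHEH1 and JHE passed, 9.52% of the tested members, beside 1.66% of all sequences. The median margin of the tested members was -2.35 on the log2 scale, against -1.34 over all tested probes. The other epoxide hydrolases did not share the pattern of JHEH1. JHEH0 was 1.75 in the gland but 3.70 in fat body and 3.16 in midgut, JHEH3 was -3.11 against -2.03 in brain, and JHEH4 was not well above background in the gland against 3.87 in midgut. JHEH5 was -1.32 in the gland and 1.03 in midgut.

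Related esterase sequences were not led by the gland either. JHE-r4A was -0.05 in the gland, the sixth of the 7 tissues, and 1.92 in fat body. Kr-h1, a transcription factor induced by juvenile hormone, was highest in the gland at -1.40, but epidermis followed at -1.56 and Malpighian tubule at -1.60, closer than the replicate SD of the CC-CA pair. Among the sequences named as juvenile hormone binding proteins, jhbp-wds30639 was bright on every array, 3.39 in the gland and between 2.67 and 3.93 elsewhere. Its probes disagreed, with margins from -2.28 to 2.73. The sequences jhbp-an147, jhbp-brp2095 and jhbp-an0128 stood at -2.84, -3.47 and -3.54 in the gland. Their highest levels were 2.58 and 4.83 in epidermis and 5.38 in salivary gland.

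**Figure D3:**
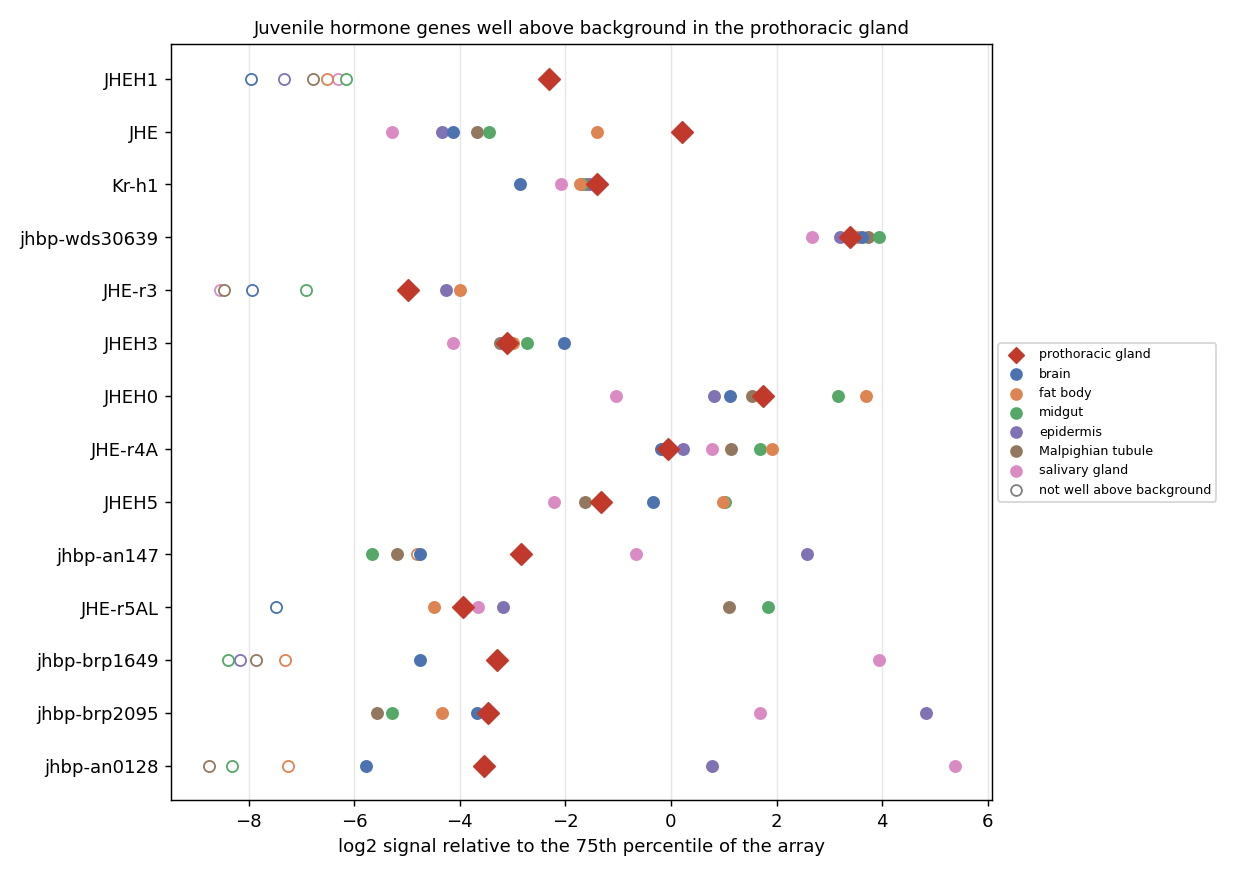
Levels (log2 signal relative to the 75th percentile of the array, x axis) of the 14 juvenile hormone genes well above background in the prothoracic gland, ordered by the margin over the highest other tissue. Red diamonds are the gland and circles the 6 other tissues, open where not well above background. JHEH1 (-2.31) and JHE (0.21) stand to the right of all 6 tissues by at least 2-fold.

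The 5 genes listed as prothoracic gland peptides were highest in brain, and whether each acts on the gland was not tested. Of these 5, 0 passed in the gland, 2 were well above background there and all 5 were so in brain. Myosuppressin, which inhibits ecdysteroid output in the silkworm, was -4.05 in the gland, 2.96 in brain and 1.13 in midgut, and not well above background in the other 4 tissues. Orcokinin, reported as a stimulator of the silkworm gland, was -3.70 in the gland and -0.12 in brain, with the other 5 between -5.20 and -3.27.

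The other 3 were not well above background in the gland. Brain stood at least 580-fold higher for corazonin, at least 76.9-fold for PTSP, the prothoracicostatic peptide, and at least 28.0-fold for FMRFamide. With normexp background correction the log2 margins of the gland below brain were -8.26, -5.29 and -3.93, smaller than these bounds. Of 28 other tested peptide genes, 4 were well above background in the gland, beside 77.6% of all tested probes. The count was 28 in brain, 11 in midgut, 7 in Malpighian tubule, 4 in fat body, 4 in epidermis and 3 in salivary gland. Brain was the highest other tissue for 23 of the 28 on the signals as measured. The share over all tested probes, 21.0%, was taken with dim signals raised to the floor, so the measures differ. NPLP4-like_peptide was the only peptide gene of the 28 above 0 in the gland, at 2.26, beside 2.33 in fat body and 1.71 in brain. SIFamide was -5.03 in the gland and 1.19 in brain, and the 5 other tissues were not well above background.

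The named receptor genes of the array, not only those for these peptides, differed in where they were found. Of 52 named receptor genes, 40 were tested and 14 were well above background in the prothoracic gland, against 25 in brain, 24 in midgut, 24 in epidermis, 22 in fat body, 20 in Malpighian tubule and 16 in salivary gland. The 26 other tested receptors were not well above background in the gland. The median margin of the tested receptors was -3.64, against -1.34 over all tested probes. Only BNGR-A16 passed the 2-fold rule, 1 of 40 or 2.5%, near the 1.66% of all sequences. The 14 well above background were 35% of the tested receptors, beside 77.6% of all tested probes.

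BMSR, the receptor for myosuppressin, had its highest level of the 7 tissues in the prothoracic gland. It stood at -0.19 there, -0.62 in midgut, -0.68 in Malpighian tubule, -2.79 in fat body, -3.76 in brain, -5.13 in epidermis and -5.52 in salivary gland. The gland was 1.35-fold above midgut, a difference about the size of the replicate SD of the CC-CA pair, and the median over its probes put midgut or Malpighian tubule higher, with a margin of -0.56. Gland, midgut and Malpighian tubule thus stood together, well above the other 4 tissues on the representative probe. SPR, a receptor for the prothoracicostatic peptide in the silkworm, was dim, at -5.36 in the gland, -4.55 in Malpighian tubule and -5.06 in epidermis, and not well above background elsewhere.

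BNGR-A16 was -4.28 in the gland, -5.45 in brain and -5.56 in midgut, and not well above background in the other 4 tissues, which gave at least 1.68-fold. It passed on 1 of 3 tested probes, and with the median over its probes the direction turned, to a margin of -2.64. Of the remaining receptors measured in the gland, 3 were lowest there. BNGR-A14 was -1.95 in the gland and between -0.71 (brain) and 0.96 (fat body) elsewhere, a shortfall of 1.24 on the log2 scale below the lowest other tissue. BNGR-A5 and BNGR-A10 were lowest in the gland by 0.31 each, less than the replicate SD. BNGR-A27 had a level of 0.14 in the gland, above salivary gland at -0.08 and below the 5 others.

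**Figure D4:**
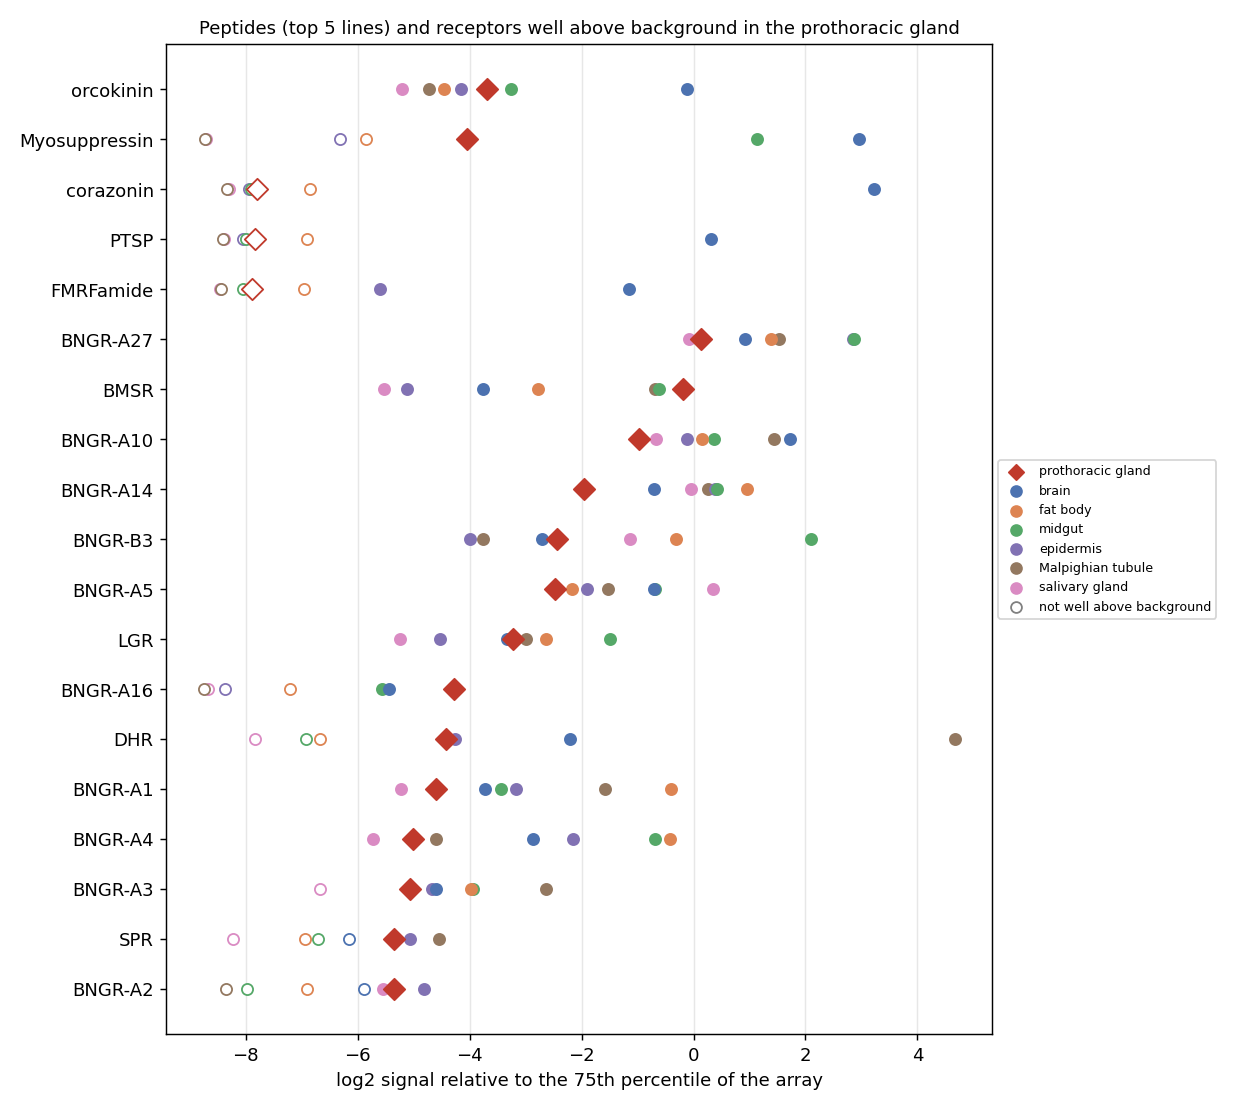
Levels (log2 signal relative to the 75th percentile of the array, x axis) of the 5 genes listed as prothoracic gland peptides (top) and of the 14 receptors well above background in the prothoracic gland. Red diamonds are the gland and circles the 6 other tissues, open where not well above background. The peptides are highest in brain, BMSR is highest in the gland (-0.19) beside midgut and Malpighian tubule, and BNGR-A14 is lowest in the gland (-1.95).

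Cuticular protein genes, which build the exoskeleton, were mostly far lower in the gland than in epidermis, the tissue that secretes it. Of 220 named members, 149 were tested, 54 were well above background in the gland and 107 in epidermis. Over all tested probes, 77.6% were so in the gland and 84.3% in epidermis. Among the 116 measured in either of these, 101 were at least 2-fold lower in the gland and 11 at least 2-fold higher, where 23.5% of all probes measured in either were lower and 17.6% higher. The median difference was -4.67 on the log2 scale. The difference ran the other way against Malpighian tubule, where 41 of 66 were at least 2-fold higher in the gland and 10 lower, beside 19.2% and 21.8% of all probes.

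From each class, the members with the highest signal in the gland are described, a choice of probes that sets no order between genes. BmorCPR42, of the RR-1 class with a chitin-binding domain, was 3.04 in the gland, 7.47 in epidermis, 3.98 in fat body, 3.75 in midgut, 2.47 in Malpighian tubule, 1.97 in salivary gland and 1.57 in brain, so it was seen in every tissue. BmorCPR46 was 1.81 and BmorCPR4 0.96 in the gland, against 7.66 and 7.48 in epidermis. In the other classes, BmorCPG4 was 0.04 in the gland and 8.09 in epidermis, BmorCPR148 was -1.40 and 6.49, and BmorCPT1 was -3.30 and 6.17. BmorCPH27 differed, with -0.59 in the gland, -1.68 in epidermis and 1.23 in salivary gland, its highest tissue. Of the 107 cuticular genes measured in epidermis, 45 were also well above background in the gland. Over all tested probes, not only those measured in epidermis, 77.6% were well above background in the gland. The epidermal markers BmorCPR40 and BmorCPG13, at 5.57 and 6.47 in epidermis, were among those that were not.

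A few cuticular genes showed the opposite pattern at low levels. BmorCPR8, BmorCPR124, BmorCPR143, BmorCPR112 and BmorCPR106 were between -5.11 and -3.46 in the gland, and BmorCPH19 was -5.23. Except for brain at -5.76 for BmorCPR143 and at -5.70 for BmorCPR106, the 6 other tissues were not well above background on the representative probes of these 6 genes. For BmorCPR112 and BmorCPR143, a further probe was measured in another tissue and not in the gland. With bounds, the gland was at least 2.95-fold higher for BmorCPR8, 2.75-fold for BmorCPR106, 2.73-fold for BmorCPR143 and 1.64-fold for BmorCPR124, and no fold could be given for BmorCPR112 and BmorCPH19.

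Each of these 6 genes passed on 1 of its 2 probes, and for each the other probe had a margin below 0. For BmorCPR8, BmorCPR106 and BmorCPR124 that other probe was not well above background on any of the 7 arrays. Its sign there does not show another tissue to be higher. BmorCPR8 was not brighter than -8.27 in any CC-CA array or gonad. BmorCPH19, in contrast, was 0.42 in ovary and -2.97 in testis, above the -5.23 of the gland, and BmorCPR143 differed between the CC-CA replicates, at -4.07 and -9.20. Of the cuticular genes, 6 of 149 or 4.03% passed, beside 1.66% of all sequences. The 9 of 250 named genes that passed (3.6%) include these 6, so that share is no separate comparison.

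**Figure D5:**
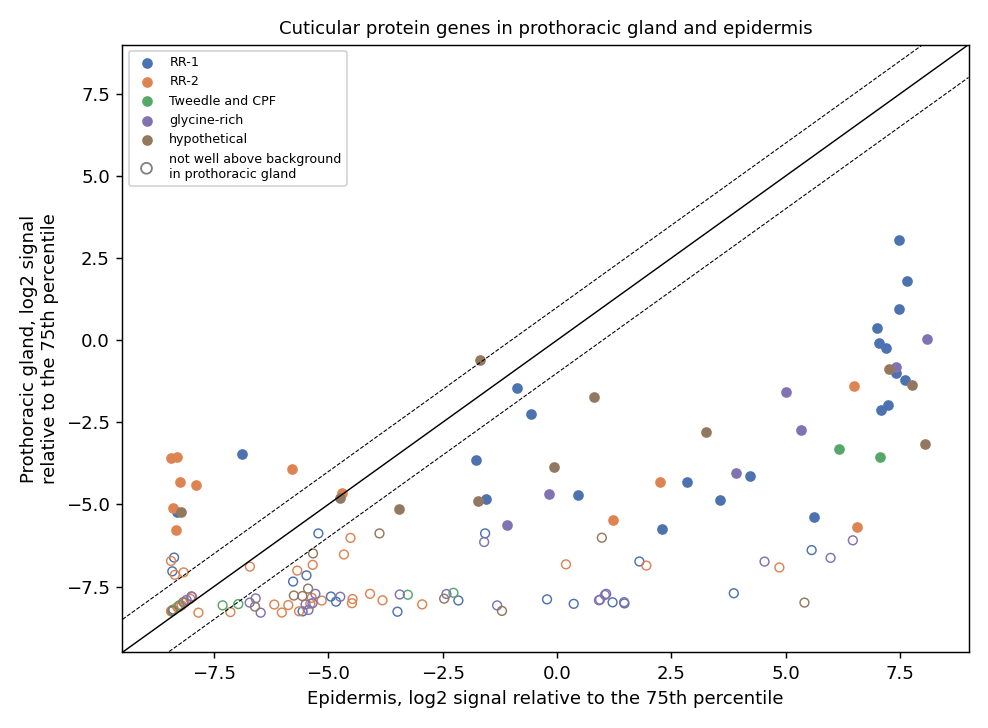
Levels (log2 signal relative to the 75th percentile of the array) of 149 cuticular protein genes in epidermis (x axis) and prothoracic gland (y axis), coloured by class and open where not well above background in the gland. The solid line marks equal levels and the dashed lines 2-fold. Of the 116 genes measured in either tissue, 101 lie at least 2-fold below the line of equal levels. The group at the left holds genes not well above background in either tissue, beside some seen in the gland but hardly in epidermis.

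Fewer probes were lowest in the prothoracic gland. In all, 257 were at least 2-fold below the lowest of the 6 other tissues (0.739%), of which 144 were dim in the gland itself and 113 were measured on all 7 arrays. The other tissues had 281 (epidermis) to 1309 (salivary gland) such probes. The gland had the fewest or, with the percentile taken over probes detected everywhere, came next after epidermis.

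A group of 5 sequences was found in all 6 tissues and not in the gland, and these sequences were chosen after their values were seen. The clone fcaL-P12_pT_P10_RevCom was -6.31 in the gland, where it was not well above background. It was -0.33 in brain, 3.01 in fat body, 1.51 in midgut, -0.81 in epidermis, 1.56 in Malpighian tubule and 2.11 in salivary gland, so the gland was at least 35.3-fold lower than epidermis, the lowest of the 6. The sequences fcaL-P43_pT_N24_RevCom, MFB-25F15, fner47a08 and BGIBMGA012019 had much the same values and were at least 27.9-fold to 30.6-fold lower in the gland. The first of the group was also bright in all 5 other arrays, between -1.99 and 2.55.

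A further 3 sequences with values close to each other were measured in the gland but far lower there. MFB-11N05 was -3.03 in the gland, 0.31 in epidermis, 0.34 in salivary gland, 2.34 in brain, 2.36 in midgut, 4.60 in Malpighian tubule and 5.89 in fat body, 10.2-fold below epidermis. BGIBMGA007111 and ftes39J02 were 9.54-fold and 9.13-fold below their lowest other tissue, salivary gland. The gland stood alone below the 6 others for all 3.

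The probes that led in the prothoracic gland were also looked up on the arrays outside the comparison. Of the 551, 407 were at least 2-fold above all 3 CC-CA arrays as well, 391 above testis and ovary, and 313 above all 5. In contrast, 98 of them were at least 2-fold higher in at least 1 of the 5 than in the gland, with 62 so in testis, 39 in a CC-CA array and 14 in ovary. The 551 were chosen for a high gland level, and the shares over all tested probes are not given here. These counts therefore do not show whether such probes were many or few. Testis and ovary came from older larvae, so tissue and stage cannot be told apart for them.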

How the data were processed

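RNA of 12 samples was hybridised to 1 array each. Per the file headers, the authors extracted spot intensities with Agilent Feature Extraction 9.5.3.1, which subtracted the background. The scanner flags, listed as other values in the deposited files, marked spots well above background, saturated or outlying. The authors' deposited intensity table equals the processed signal divided by 1 constant per array, whose meaning the sources used here do not state.

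The log2 processed signal minus the 75th percentile of non-control spots was used; outlier spots were left out, spots of a probe averaged, and 118 probes without a value on the 7 arrays dropped. A gene's representative probe was well above background on the most of the 7 arrays, ties going to the highest mean. Named were up to 15 genes by margin, 10 by shortfall below the lowest tissue, the peptides, the receptors measured in the gland, the top 3 of each cuticular and juvenile hormone list, and 12 sequences by margin. Members and lists were chosen with earlier results of these data known. Counting was tested on simulated data. The alternatives were normexp (offset 50) in limma 3.58.1, quantile, percentile and value-table scaling, a dim-signal floor, dim-probe filters, 4-fold, the same slide and probe medians. Normexp used median spot signals, since mean signals were planned but are not used here. The number of arrays limits the precision. Scripts ran in Python 3.11.15 and R 4.3.3.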

Additional observations from a re-analysis of the deposited data

How the results depend on the processing

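The number of probes at least 2-fold above all 6 tissues was 551. It was 307 with normexp, 841 on the deposited value scale, 142 among probes well above background on all 7 arrays, 261 at 4-fold and 2096 against brain and fat body alone. The number below all 6, 257, was 89, 129, 113, 47 and 2230 in the same order, and 158 with dim signals raised to the floor. Of the 551 probes, 304 were among the 307 of normexp and 524 among the 841. The 9 named genes became 5 with normexp or the floor, 4 with the median over probes, 21 on the same slide and 1, JHE, among genes well above background on all 7 arrays, a filter chosen after seeing the data. With the median over probes, the margin became -0.56 for BmorCPR143, -0.15 for BmorCPR112 and -2.64 for BNGR-A16, since their probes disagree. Quantile scaling and a percentile over detected probes kept the counts within 1.5 times.

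The deposited value scale raised the median difference between the gland and the mean of the 6 tissues to 0.36, and quantile scaling to 0.12, from -0.001. The share of higher among probes past 2-fold then became 73.2% for fat body, 67.4% for midgut, 72.5% for epidermis and 35.1% for salivary gland on the deposited scale, against 52.4%, 49.5%, 42.8% and 52.0%. The percentile over detected probes gave 34.2% for brain and 62.7% for salivary gland, quantile scaling 57.8% for epidermis, and normexp 40.4% for fat body. The cause was not tested. No paired analysis was possible because each tissue compared has 1 array.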
